A study of Mus musculus with 21 samples.

Results

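The Pim kinases are a family of 3 serine/threonine kinases encoded by Pim1, Pim2 and Pim3, and the members were taken by gene symbol from RNA-seq tables of log2 CPM, the log2 of counts scaled to library size. Pim1 and Pim2 were analysed, which is 2 of the 9973 genes held by all 4 tables, and Pim3 was not analysed here. The cells were mouse Ba/F3 cells, a pro-B line that normally needs interleukin-3 and that grows without it once an active JAK2 is introduced. All 7 groups carried stably expressed JAK2-V617F, the activating mutant of myeloproliferative neoplasms, delivered by retrovirus. Each group had 3 libraries, 21 in all. In the 6 h experiment, cells received DMSO, 1 μM ruxolitinib, a type I ATP-competitive JAK inhibitor that binds the active conformation, or 1 μM CHZ868, a type II inhibitor that binds the inactive conformation. In the washout experiments, cells were exposed to DMSO or 1 μM inhibitor for 1 h, rinsed in PBS and kept for 6 h in inhibitor-free medium with serum, and each inhibitor had its own DMSO-wash group. The labels do not say whether the 3 libraries of a group came from separate cultures, so p-values measure the spread between these libraries, which may be technical.

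Pim kinases phosphorylate proteins that govern survival, translation and cell cycle entry, among them the BCL2 antagonist BAD and the cyclin-dependent kinase inhibitors p21 and p27. They are constitutively active once made, so their amount is set largely by transcription, by mRNA stability and by turnover of the protein. In blood cells, cytokine receptors signal through JAK2 to STAT5, which binds GAS elements and induces Pim1 and Pim2 along with feedback inhibitors such as Cish and Socs1. The 6 h treatments ask how far JAK2 inhibition lowers these transcripts, and the washouts ask which transcripts exceed the DMSO level after ruxolitinib leaves the kinase but not after CHZ868 does.

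The listed genes took 7880220 to 10673060 reads in the 15 libraries where whole reads could be recovered, and is unknown for the ruxo-wash and DMSO-wash libraries of the ruxolitinib experiment. Of 14 pro-B and B lineage markers, 4 were held by all tables (Cd79a, Cd79b, Ptprc and Spn), as were all 3 interleukin-3 receptor genes, while Pax5 and Ebf1 were not among the genes analysed. Of the markers of other cells, none of T cells, epithelium or mast cells and basophils was among the genes analysed, and 2 of macrophages and 1 of fibroblasts were, at -0.51 to 3.65 log2 CPM. Replicate 2 of the ruxo-treated group stood apart from its group, by root mean square differences of 0.355 to 0.370 log2 units against 0.196 between the others. Replicate 3 of the DMSO-wash group set beside CHZ868 washout did so by 0.311 to 0.397 against 0.204. Differences of each Pim gene that rest on either library are given with and without it. In the ruxolitinib washout experiment, all pairs within a group differed by as much, at 0.303 to 0.393 (DMSO-wash) and 0.307 to 0.327 (ruxo-wash). Each of the 4 tables was normalized separately. Ruxo-treated cells have a table of their own, so they were compared with DMSO-treated cells after subtracting from each library the median of the 11624 genes that both tables hold, with no test.

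Pim1 lies on chromosome 17, at chr17:29490753-29496112 on the plus strand of GRCm38, and Pim2 on the X chromosome, at chrX:7878262-7883432 on the plus strand. Both are protein-coding genes in the GENCODE annotation, with 7 and 4 transcripts and a combined exon length of 3.36 kb and 2.80 kb. The transcripts of Pim1 and Pim2 shared no stretch of 31 bases with each other, so reads of one are not readily assigned to the other. Of the 31-base stretches of Pim1, 11.5% also occurred in transcripts of 6 other annotated genes, against 4.52% for Pim2 with 2 other genes.

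Because the 2 members moved together at 6 h, the reference sequence just upstream of the annotated gene starts is shown, from the RefSeq promoter table (GRCm38.p6, plus strand). Capitals mark GGGCGG or CCGCCC, a GC box, in Pim1 (chr17:29490535-29490752), and ATGCAAAT or ATTTGCAT, the octamer bound by POU factors, in Pim2 (chrX:7878056-7878261). Both motifs were chosen after the sequences were seen.
Pim1: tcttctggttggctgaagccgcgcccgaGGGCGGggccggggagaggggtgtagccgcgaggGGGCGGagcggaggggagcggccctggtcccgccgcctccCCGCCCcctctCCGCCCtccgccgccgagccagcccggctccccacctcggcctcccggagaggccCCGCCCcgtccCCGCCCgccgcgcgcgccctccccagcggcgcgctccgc
Pim2: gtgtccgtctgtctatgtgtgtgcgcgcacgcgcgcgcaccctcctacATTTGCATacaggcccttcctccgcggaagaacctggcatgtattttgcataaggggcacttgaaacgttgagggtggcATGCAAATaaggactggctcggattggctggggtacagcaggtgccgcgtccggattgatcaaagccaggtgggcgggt

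The STAT motif of the study, TTC and GAA separated by 2 to 4 bases, was searched in windows of 300 bases around the RefSeq start, 250 of them before it; each form is its own reverse complement, so 1 search covers both strands. None of the 3 spacings occurred in the Pim2 window or in either of the 2 Pim1 windows. Over 32851 promoter windows, 8.52% held the form with 2 bases between, 8.30% that with 3 and 6.95% that with 4. The Pim2 window held 2 copies of the octamer, which 1.74% of windows hold at least once and 0.107% at least 2 times. The Pim1 window shown held 7 GC boxes over its full length, and 35.7% of windows held at least 1 and 19.5% at least 2. The share of windows with 7 was not computed. The GC content of that Pim1 window was 81.3%, above that of 99.3% of windows, against 62.7% for Pim2 and a median of 52.7%. The other Pim1 window held no GC box, and its GC content of 49.0% was above that of 35.6% of windows. The Pim2 window held 1 GC box and the Pim1 windows no octamer. A match, or its absence, describes these letters only.

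Pim1 mRNA fell 9.20-fold and Pim2 mRNA 5.90-fold after 6 h of CHZ868, and both were lower by nearly as much after 6 h of ruxolitinib, 7.15-fold and 5.08-fold. Pim1, the family member first found as a proviral insertion site in lymphoma, was at 8.64, 8.69 and 8.72 log2 CPM in the DMSO-treated libraries and at 5.34, 5.48 and 5.63 in the CHZ868-treated libraries. The groups were far apart, with 3487 to 4239 Pim1 reads in the DMSO-treated and 336 to 405 in the CHZ868-treated libraries. The log2 fold change of Pim1 was -3.20 (SE 0.08, limma-trend with Benjamini-Hochberg adjustment, adjusted p = 2.59e-13), the 27th largest fall among 11670 genes. Pim2, which acts on an overlapping set of substrates, was at 5.99, 6.06 and 5.91 log2 CPM in the DMSO-treated and at 2.99, 3.47 and 3.81 in the CHZ868-treated libraries. Every CHZ868-treated library was below every DMSO-treated one, and the CHZ868-treated values of Pim2 were the more spread of the 2 genes, at 78 to 111 reads. The log2 fold change of Pim2 was -2.56 (SE 0.17, limma-trend, adjusted p = 1.09e-08), the 60th largest fall. Both analysed members passed in this comparison, in which 26.4% of genes were called lower and 26.8% higher. On the linear scale, 10.9% of the DMSO level of Pim1 and 17.0% of that of Pim2 was left. In bulk samples, fewer cells that express a gene and less of its RNA per cell cannot be told apart.

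After 6 h of ruxolitinib, Pim1 stood at 6.01, 5.71 and 5.89 log2 CPM and Pim2 at 3.90, 3.34 and 3.76 as deposited. On the median-centred scale, Pim1 was at 0.74, 0.46 and 0.60 in the ruxo-treated and at 3.39, 3.44 and 3.48 in the DMSO-treated libraries, a difference of -2.84 (pooled SD 0.10, n = 3 per group). Pim2 on that scale was at -1.38, -1.91 and -1.54 against 0.74, 0.81 and 0.66, a difference of -2.34 (pooled SD 0.20). For neither gene did the groups overlap. The falls ranked 42nd and 68th among the 11624 shared genes, of which 2.83% were at least 1 log2 unit lower with no overlap and 0.292% as much higher. Ruxo-treated replicate 2 held the lowest value of both genes, and without it the differences were -2.77 for Pim1 and -2.19 for Pim2.

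**Figure D1:**
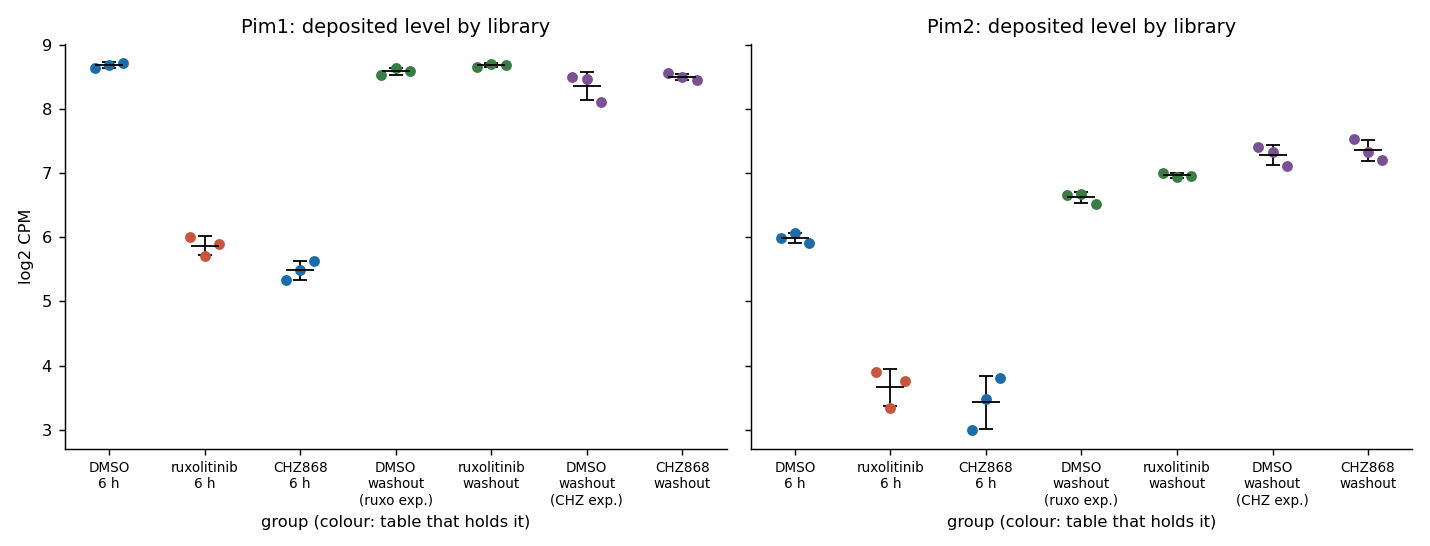
Deposited level of Pim1 (left) and Pim2 (right) in log2 CPM for each of the 3 libraries of the 7 groups, with points in replicate order, the group mean as a dash, the SD as bars and colour for the table, between which levels are not on one scale. Both genes sit lowest in the 2 groups with inhibitor present for 6 h, where Pim1 lies between 5.34 and 6.01 and Pim2 between 2.99 and 3.90.

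Set side by side on the centred scale, the 2 inhibitors left Pim1 and Pim2 at similar levels. Pim1 was higher with ruxolitinib (0.74, 0.46 and 0.60) than with CHZ868 (0.12, 0.25 and 0.42) by 0.34 (pooled SD 0.15, n = 3), and the groups did not overlap, which was true of 18.6% of shared genes in that direction. Pim2 differed by 0.19 (pooled SD 0.35) with overlapping groups. Without ruxo-treated replicate 2, the differences were 0.41 for Pim1 and 0.34 for Pim2. These differences were not tested, since the 2 groups come from tables normalized separately.

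After ruxolitinib washout, Pim2 was above its DMSO-wash level in every library, 1.27-fold on average, but neither Pim gene passed the test over all genes. Pim2 was at 6.66, 6.68 and 6.52 log2 CPM in the DMSO-wash libraries and at 7.01, 6.94 and 6.95 in the ruxo-wash libraries. The groups did not overlap, and the gap between them exceeded the spread within either. The log2 fold change of Pim2 was 0.35 (SE 0.05, 95% interval 0.22 to 0.47) with an unadjusted p of 0.0005 and an adjusted p of 0.218 by limma-trend over 13085 genes. Pim1 was at 8.53, 8.63 and 8.59 log2 CPM in the DMSO-wash and at 8.65, 8.71 and 8.69 in the ruxo-wash libraries. These groups did not overlap either, although the lowest ruxo-wash library lay only just above the highest DMSO-wash library. The log2 fold change of Pim1 was 0.10 (SE 0.03, 95% interval 0.01 to 0.18), with an unadjusted p of 0.029 and an adjusted p of 0.659 by limma-trend. Of all genes, 6.3% were higher in the ruxo-wash libraries with no overlap, and 0.0229% (3 genes, all lower) passed the adjusted threshold, against 920 at an unadjusted p under 0.05. By the size of the rise Pim2 ranked 1033rd and Pim1 3261st.

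After CHZ868 washout, both genes overlapped their DMSO-wash group. Pim1 was at 8.49, 8.47 and 8.10 log2 CPM in the DMSO-wash libraries of this experiment and at 8.56, 8.49 and 8.46 in the CHZ868-wash libraries. The groups overlapped, with replicate 3 of the DMSO-wash group as the lowest library. The log2 fold change of Pim1 was 0.14 (SE 0.11, 95% interval -0.09 to 0.38, limma-trend, adjusted p = 0.441), and 0.02 without that library. Pim2 was at 7.41, 7.33 and 7.11 log2 CPM in the DMSO-wash and at 7.53, 7.33 and 7.21 in the CHZ868-wash libraries, which overlapped over most of their range. Its log2 fold change was 0.07 (SE 0.11, 95% interval -0.17 to 0.31, adjusted p = 0.712), and -0.01 without DMSO-wash replicate 3 or without CHZ868-wash replicate 1. In this comparison 4.02% of 11355 genes passed, 2.07% as lower. That count of 457 rested on the fit, since 0 genes passed with no mean-variance trend and between 0 and 1426 on leaving out a library, with 0 without CHZ868-wash replicate 1 or 3 or DMSO-wash replicate 1, 1 without CHZ868-wash replicate 2, 1298 without DMSO-wash replicate 2 and 1426 without DMSO-wash replicate 3.

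**Figure D2:**
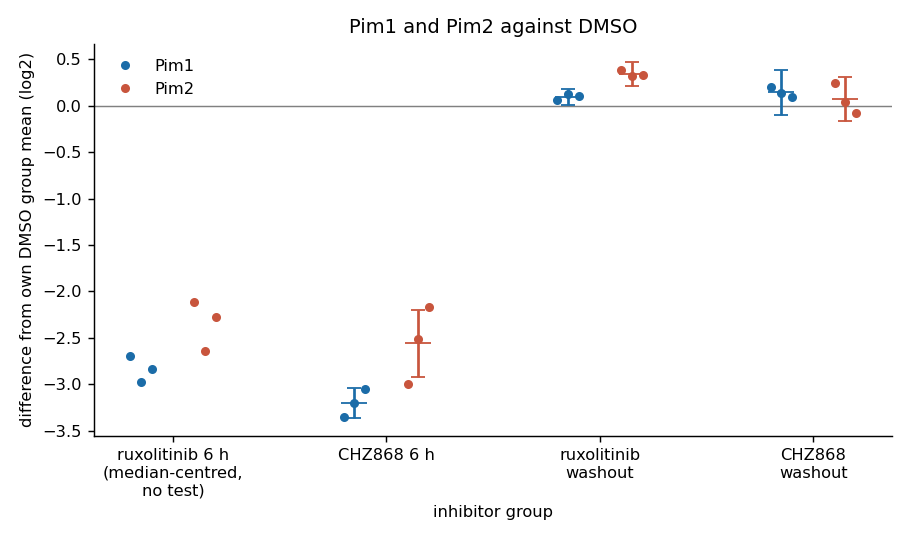
Difference of each inhibitor library from the mean of the DMSO group of its own experiment (log2), for Pim1 (blue) and Pim2 (red), with dashes and bars for the limma-trend estimate and its 95% interval in the 3 tested comparisons. The 6 h groups lie between -3.35 and -2.12, and the washout groups between -0.07 and 0.39.

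The 2 washout effects were compared directly, since the design sets ruxolitinib against CHZ868 after removal. Only the CHZ868 washout values came out as whole reads, so the 2 experiments may differ in how reads were counted. For Pim2, the rise after ruxolitinib was larger than that after CHZ868 by 0.27 on the log2 scale (SE 0.13, 95% interval -0.01 to 0.55, limma-trend on 12 libraries, adjusted p = 0.279), and for Pim1 it was lower by less than its error (-0.05, SE 0.12, 95% interval -0.32 to 0.22, adjusted p = 0.868). A difference between the inhibitors after washout was thus not shown for either gene, and the interval for Pim2 reaches from about no difference to about 0.55. Of 10078 genes held by both washout tables, 1.9% passed this test. Leaving out replicate 3 of the DMSO-wash group beside CHZ868, which stood apart, gave 0.36 for Pim2 (adjusted p = 0.0901) and 0.08 for Pim1 (adjusted p = 0.532).

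The presence of CHZ868 was also set against its removal. The 6 h effect minus the washout effect was -3.35 on the log2 scale for Pim1 (SE 0.14, adjusted p = 1.25e-11) and -2.63 for Pim2 (SE 0.22, adjusted p = 8.94e-08) by limma-trend, a test that 23.8% of 11175 genes passed in that direction. Without DMSO-wash replicate 3 the values were -3.22 for Pim1 and -2.55 for Pim2. Exposure time (6 h against 1 h), removal of the inhibitor, washing, experiment and table change together in this contrast and cannot be told apart. Ordered by the difference from the own DMSO group, both genes were lowest with CHZ868 at 6 h, then with ruxolitinib at 6 h, and near or above the DMSO level in both washouts. For Pim2 the 2 groups at 6 h overlapped, and for Pim1 the 2 washout groups did.

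Within a library, the difference between Pim1 and Pim2 does not depend on how that library was scaled. Pim1 exceeded Pim2 in all 21 libraries. In CPM, the excess was 2.65, 2.63 and 2.82 log2 units in the DMSO-treated libraries, 1.87, 1.95 and 2.07 in DMSO-wash of the ruxolitinib experiment and 1.09, 1.14 and 0.99 in DMSO-wash of the CHZ868 experiment. Per kb of annotated exons, where levels of 2 genes can be compared, the excess was 2.43, 1.70 and 0.81 log2 units, or 5.40, 3.25 and 1.75 times. The 3 DMSO groups thus did not overlap in the balance of the 2 members, yet each comes from another table. Experiment, table, the way reads were counted and washing cannot be told apart.

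Against its own DMSO group, the excess of Pim1 over Pim2 was smaller in every library with either inhibitor at 6 h and after ruxolitinib washout, although 3 against 3 cannot pass the exact test. At 6 h the excess of Pim1 was 2.34, 2.01 and 1.82 with CHZ868 (2.06 ± 0.26, SD, n = 3), a change of -0.64 on the log2 scale (exact permutation test, two-sided, p = 0.1, adjusted over 3 comparisons 0.15). After ruxolitinib washout it was 1.71 ± 0.07, a change of -0.25 (exact permutation p = 0.1, adjusted 0.15). In both of these, no library of one group overlapped the other, and 0.1 is the smallest p that 3 against 3 allows, so neither could pass. How often other pairs of genes separate in this way was not computed. After CHZ868 washout the excess was 1.14 ± 0.11, a change of 0.07 with overlap (exact permutation p = 0.4, adjusted 0.4). In ruxo-treated cells the excess was 2.12, 2.37 and 2.13 (2.21 ± 0.14), below every DMSO-treated library. This was not tested, since the permutation test was kept to groups of the same table.

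**Figure D3:**
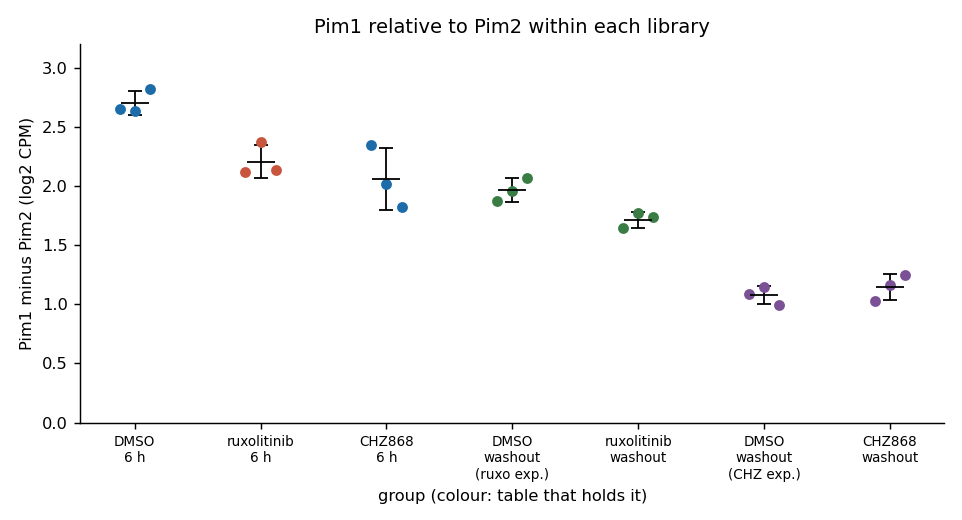
Pim1 minus Pim2 within each library (log2 CPM, not corrected for length) in the 7 groups, with the group mean as a dash and the SD as bars and colour for the table. The DMSO groups sit between 2.63 and 2.82, between 1.87 and 2.07 and between 0.99 and 1.14, and the ruxolitinib 6 h, CHZ868 6 h and ruxolitinib washout groups lie below their own DMSO groups without overlap.

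Genes upstream of Pim were called in both directions with CHZ868 at 6 h. Of 12 listed genes for the interleukin-3 and erythropoietin receptors, the JAK kinases and the STAT factors, all 12 were measured, and 7 were lower and 4 higher, with a median log2 fold change of -0.27 against -0.01 over all genes, of which 26.4% were called lower and 26.8% higher. Jak3, the kinase paired with the common gamma chain, fell by 0.83 on the log2 scale (SE 0.08, adjusted p = 5.78e-07). Csf2rb, the shared beta chain of the interleukin-3 receptor, fell by 0.36 (SE 0.06, adjusted p = 8.01e-05), and Epor, the erythropoietin receptor, rose by 0.39 (SE 0.14, adjusted p = 0.0299). With ruxolitinib at 6 h, 1 of the 12 was at least 1 log2 unit lower without overlap and 0 were as much higher. Over all genes these shares were 2.83% and 0.292%. The median difference of the list was 0.10 against 0.04 over all genes. None of the 12 passed in either washout.

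Other STAT5 target genes were mostly lower alongside Pim1 and Pim2 while inhibitor was present. Of 16 listed, 13 were measured at 6 h, and with CHZ868 11 were lower, Mcl1 alone was higher (0.22, adjusted p = 0.0059) and the remaining gene passed in neither direction, with a median of -1.18, beside 26.4% lower and 26.8% higher over all genes. Socs1, a feedback inhibitor of JAK kinases, fell by 5.20 (SE 0.37, adjusted p = 2.36e-08), further than either Pim gene. Osm, a cytokine of the interleukin-6 family, fell by 2.46 (SE 0.22, adjusted p = 2.81e-07), Id1, an inhibitor of basic helix-loop-helix factors, fell by 2.24 (SE 0.12, adjusted p = 1.36e-09), and Bcl2l1, which encodes the survival protein BCL-XL, fell by 1.69 (SE 0.18, adjusted p = 1.57e-06). With ruxolitinib at 6 h, 7 of 13 were at least 1 log2 unit lower without overlap, beside 2.83% of all genes, with a median of -1.07 against 0.04 over all genes. Mcl1 went the other way there, at -0.20, which was not tested. None of 14 measured passed after either washout, where the medians were 0.02 for ruxolitinib and -0.04 for CHZ868.

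**Figure D4:**
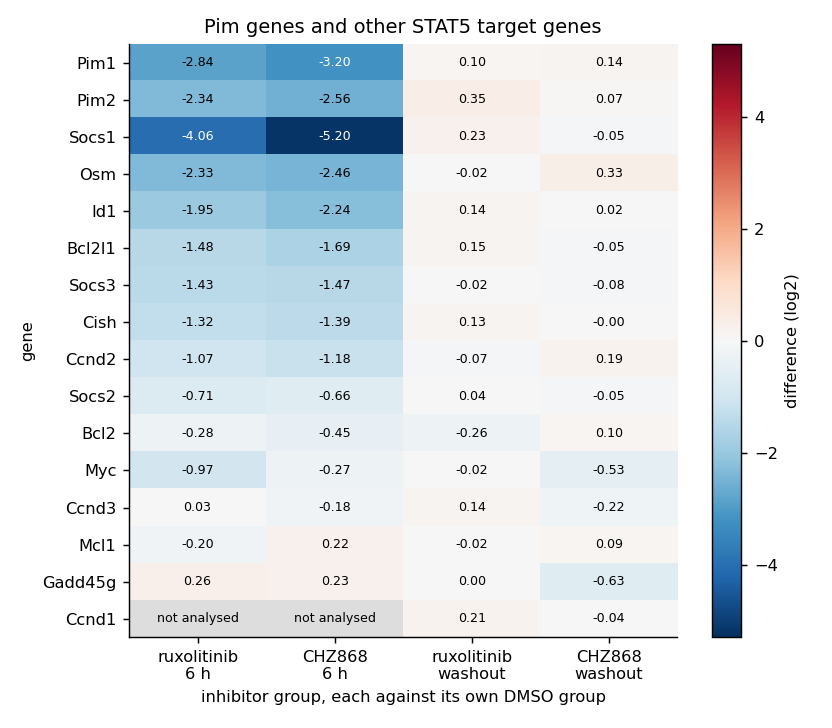
Differences from the own DMSO group (log2, colour and printed value) of Pim1, Pim2 and the other STAT5 target genes measured, in the 4 inhibitor groups; ruxolitinib at 6 h is median-centred and untested. The 2 columns with inhibitor present hold most of the large values, down to -5.20 for Socs1, and the washout columns lie between -0.63 and 0.35.

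Transcripts of known Pim substrates were called in both directions. Of 22 measured of 23 listed, 8 were higher and 7 lower with CHZ868 at 6 h, with a median of 0.07, beside 26.8% higher and 26.4% lower over all genes, so the list stood near the background. Socs1 is in this list too, and Socs3, another feedback inhibitor, fell by 1.47 (SE 0.27, adjusted p = 3.02e-04). Cxcr4, the CXCL12 receptor, rose by 1.38 (SE 0.07, adjusted p = 3.00e-10), and Myb, a transcription factor of progenitor cells, rose by 0.80 (SE 0.05, adjusted p = 1.12e-08). With ruxolitinib at 6 h, 1 was at least 1 log2 unit higher without overlap (Cxcr4, at 1.11) and 2 were lower (Socs1 and Socs3), beside 0.292% and 2.83% over all genes. After CHZ868 washout 2 were lower, beside 2.07% over all genes, Runx3 at -0.61 (SE 0.13, adjusted p = 0.0408) and Rela at -0.49 (SE 0.11, adjusted p = 0.0409), calls lost where 0 genes passed, and after ruxolitinib washout none passed.

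Genes of Pim protein turnover, the HSP90 and HSP70 chaperones and subunits of the phosphatase PP2A, showed small differences. Of 7 measured of 9 listed, 4 were higher and 1 lower with CHZ868 at 6 h, beside 26.8% and 26.4% over all genes. Ppp2ca, a catalytic subunit of PP2A, rose by 0.46 (SE 0.08, adjusted p = 1.25e-04), Ppp2r1a, its scaffold, by 0.36 (SE 0.06, adjusted p = 2.08e-04) and Hspa8 by 0.23 (SE 0.06, adjusted p = 0.00615), while Hsp90aa1 fell by 0.20 (SE 0.05, adjusted p = 0.0064). None of the 7 passed in either washout or was 1 log2 unit apart with ruxolitinib at 6 h.

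Within the CAMK group of kinases, to which the Pim family belongs, large falls were few. Of 27 other kinases measured of 48 listed, 7 were higher and 4 lower with CHZ868 at 6 h, with a median of 0.10, beside 26.8% higher and 26.4% lower over all genes. Pim1 showed the largest fall and Pim2 the third of the 29 kinases, with Trib3, a pseudokinase of the stress response, between them at -2.67 (SE 0.09, adjusted p = 7.93e-12). Sik3, a salt-inducible kinase, rose by 0.83 (SE 0.06, adjusted p = 5.33e-08), Melk, a mitotic kinase, rose by 0.62 (SE 0.14, adjusted p = 0.00192), and Prkd2, a diacylglycerol-regulated kinase, fell by 0.62 (SE 0.10, adjusted p = 7.05e-05). With ruxolitinib at 6 h, Pim1 and Pim2 showed the 2 largest falls of the 29, and Trib3 was the only other kinase at least 1 log2 unit lower without overlap, beside 2.83% of all genes. After CHZ868 washout 1 of 26 was lower, beside 2.07% over all genes: Sik3 (-0.57, SE 0.13, adjusted p = 0.041, a call lost in the same way), and after ruxolitinib washout none of 28 passed.

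**Figure D5:**
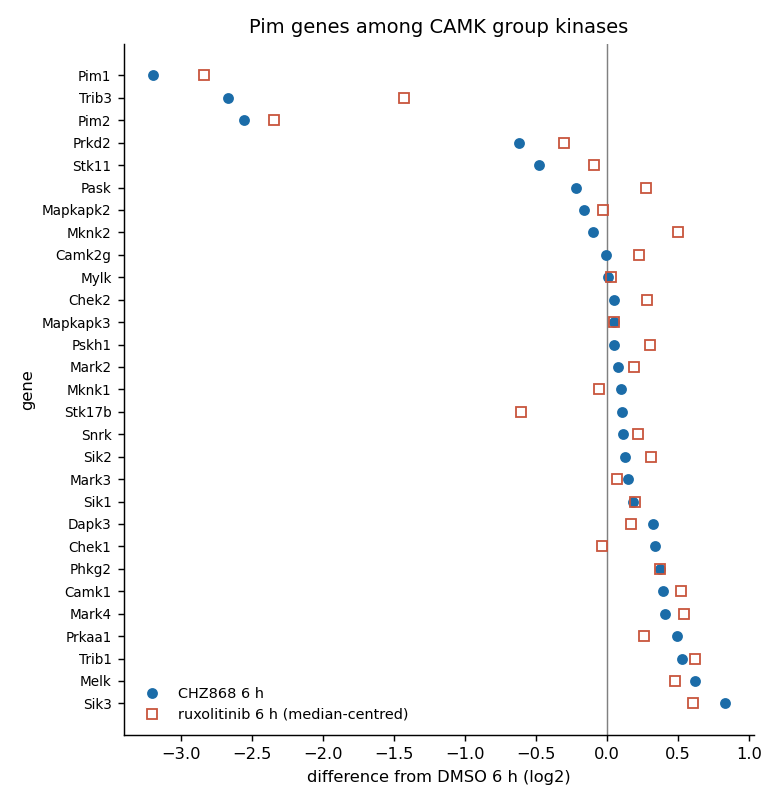
Difference from DMSO at 6 h (log2) of Pim1, Pim2 and the 27 other CAMK group kinases measured, for CHZ868 (filled circles) and ruxolitinib (open squares, median-centred), ordered by the CHZ868 value. Pim1, Trib3 and Pim2 lie at -2.56 or below with CHZ868, and the next kinase, Prkd2, at -0.62.

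The genes with the pattern most like each Pim gene were found by the root mean square difference over the 12 inhibitor libraries, each relative to its own DMSO group, among 9777 genes. For Pim1 they included Ciita (0.22 log2 units), Igtp (0.24), Irgm2 (0.25) and Dusp6 (0.25). For Pim2 they were Irgm1 (0.25), Osm (0.28), Irf1 (0.29), Parp14 (0.32) and Oas3 (0.32). Pim2 was 16th in likeness to Pim1 and Pim1 20th in likeness to Pim2, at 0.45. Ciita was at -3.06 with ruxolitinib and -3.35 with CHZ868 at 6 h, beside -2.84 and -3.20 for Pim1. Of the 5 genes closest to Pim2, the highest mean after ruxolitinib washout was 0.11 (Irf1), beside 0.35 for Pim2. The measure is a description over libraries that share their DMSO groups.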

How the data were processed

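RNA was sequenced from 21 libraries of Ba/F3 JAK2-V617F cells. The deposited values are log2 CPM, made by the authors. The authors' methods name kallisto on GRCm38, gene sums through biomaRt, edgeR with a filter on low expression and TMM, whereas the authors' processing notes at submission name STAR 2.7.3a, edgeR 4.0.16 and GRCm39, so the route from reads to counts is not settled. The values were used as deposited. For groups held by the same table, limma-trend was run on those groups alone (limma 3.58.1, R 4.3.3), p-values were adjusted by Benjamini-Hochberg across the whole table, and an adjusted p under 0.05 was called. Contrasts between experiments used 12 libraries. Scripts were tested on simulated data. Differences between Pim1 and Pim2 were tested by exact permutation (scipy 1.17.1).

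Ruxo-treated libraries were centred on the median and not tested. Whole reads were recovered in 3 tables within 0.05 of a whole number. The ruxolitinib washout values did not come out as whole reads, so they may have been counted by another route, which was not tested. Fewer reads, as for Pim2 with inhibitor present, give wider errors. The members and lists were chosen with earlier results of these data known, and the study names Pim genes from these libraries, so their direction is not independent evidence. Named list genes are the 4 with the largest change among those that passed with CHZ868 at 6 h, and up to 4 that passed elsewhere; Mcl1 was named after its value was seen. For likeness, the 5 closest genes per member were taken. Some genes that these rules name are not reported here. Gene models came from GENCODE M21. Alternatives were no trend, vooma weights, robust fitting, median centring, quantile normalization, a filter at a mean of 1 log2 CPM, log2(CPM + 1), a replicate block and leaving out each library; for ruxo-treated cells, no centring, trimmed means and quantiles.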

Additional observations from a re-analysis of the deposited data

Results flagged for a closer look

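For both Pim genes, the effect of CHZ868 differed between 6 h of exposure and washout by a test of the difference itself (limma-trend on 12 libraries). The 6 h effect minus the washout effect was -3.35 for Pim1 and -2.63 for Pim2 on the log2 scale, with all 3 CHZ868-treated libraries below their DMSO group for each gene.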

How the results depend on the processing

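Of 229 alternative values for the Pim genes, 225 kept their direction. Of these, the limma-trend values also kept their side of the threshold. The others, which include Pim1 minus Pim2 within a library, moved by less than 1 SD, and the permutation p was not recomputed. Pim2 after CHZ868 washout changed sign without CHZ868-wash replicate 1 or without DMSO-wash replicate 3 (-0.0137 and -0.0115), over a range of -0.0137 to 0.148. The Pim1 difference between the washout effects changed sign without DMSO-wash replicate 3 (0.0782, with a range of -0.116 to 0.0782), and Pim2 with ruxolitinib against CHZ868 at 6 h without CHZ868-treated replicate 1 (-0.0266, with a range of -0.0266 to 0.385). Adjusted p for Pim2 after ruxolitinib washout was 0.2 to 0.677 over the alternatives. Counts of called genes moved more. After ruxolitinib washout (3 called) they were 9 with no trend, 5 with robust fitting and 0 to 1 on leaving out a library. After CHZ868 washout (457) they were 0 with no trend and 0 to 1426 on leaving out a library. For the difference between washout effects (191) they were 14 with no trend, 122 with vooma weights and 5 to 628 on leaving out a library. The cause was not tested. Same-numbered libraries showed no visible shared effect, as the correlations of their deviations were -0.05 to 0.05. Such correlations cannot show whether same-numbered libraries were set up together. With a replicate block, the log2 fold change of Pim2 after ruxolitinib washout was 0.35 (adjusted p = 0.677), 0 genes were called in that comparison and 6 for the difference between washout effects, and no call on a Pim gene changed. Leaving out a library leaves 2 in its group. Depth limits Pim2 most, at 78 to 143 reads with inhibitor present for 6 h.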
